A study of Rattus norvegicus with 4 samples.

Results

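Mitochondrial protein import and folding was followed at the level of mRNA in RSC96 cells, an established rat Schwann cell line, after treatment with the cytokine IL-22. The genes were taken by symbol from the deposited gene table: every symbol that starts with Timm or Tomm and a number, together with Hspd1, Hspe1, Hspa9, Trap1, Grpel1, Grpel2, Pmpca, Pmpcb, Samm50, Lonp1, Clpx, Phb, Phb2, Chchd4 and Dnaja3. The rule found 35 genes among the 17244 symbols of the table, and 34 of them passed a minimum of 1 FPKM on average over the libraries and were tested. FPKM are fragments scaled to transcript length and to the mapped fragments of the library, so levels can be set side by side between genes. Clpp, which the rule also names, has no value here.

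Cells of the 4th generation were kept overnight without serum. The IL-22 group was then treated for 48 h with the recombinant rat cytokine at 100 ng/ml. Control cells were given its solvent alone, 0.1% bovine serum albumin, and their exposure time is not stated. Each group had 2 libraries of poly(A) RNA, with no statement that they were separate cultures. The p-values therefore reflect library-to-library spread alone, and that spread may be technical. For each gene the spread was also moderated with that of other rows of similar level, so it is not that gene's own spread alone. IL-22 belongs to the IL-10 family of cytokines and signals mainly through STAT3.

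Nearly all mitochondrial proteins are made in the cytosol and enter the organelle through the TOM complex of the outer membrane. Precursors with an N-terminal presequence then pass the TIM23 complex of the inner membrane, pulled by a motor built around the matrix Hsp70, while carrier proteins are handed by small TIM chaperones to the TIM22 complex. In the matrix, a peptidase removes the presequence, chaperones fold the new protein, and proteases such as Lonp1 degrade what fails to fold. Schwann cells, the glia of peripheral nerves, rely on mitochondria for the support of axons, and loss of mitochondrial function in them is known to damage nerves in mice.

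Judged from the steps between low values, both IL-22 libraries were 1.08 times and control library 2 was 1.28 times as deep as control library 1. The absolute read number is unknown. From 11196 to 11641 gene rows were above 0 in a library. Of the Schwann lineage markers, Sox10, S100b and Ngfr did not exceed 0.119 FPKM in any of the 4 libraries, and Cdh19, Mbp and Gap43 were listed at 0, so these 6 markers of the labelled cell type were near or at 0. Ncam1, a broad neural adhesion gene, was at 34.1 and 38.3 FPKM with IL-22 and 23.9 and 24.9 FPKM in controls, and Egr2, a factor of myelination, was at 4.63 and 5.60 FPKM with IL-22 and 0.440 and 0.480 FPKM in controls. The list of 11 lineage markers summed to 41.2 and 46.8 FPKM with IL-22 and to 27.5 and 28.3 FPKM in controls, with Ncam1, Egr2 and Erbb3 called higher and Gfap lower among the 4 tested. The summed level of 10 macrophage and leukocyte markers was 7.29 and 4.16 FPKM with IL-22 and 4.47 and 4.19 FPKM in controls, and that of 7 endothelial markers lay between 1.15 and 1.90 FPKM. The fibroblast and perineurial list of 11 genes summed to 742 and 776 FPKM with IL-22 and to 538 and 530 FPKM in controls. Slc2a1, Thy1 and Col1a2 made up nearly all of it, and Dcn, Lum and Krt19 were listed at 0. The higher sum came mostly from Slc2a1, a glucose transporter gene, at 340 and 369 FPKM with IL-22 and 132 and 133 FPKM in controls. Of 5 tested, Slc2a1, Thy1 and Pdgfra were called higher. The collagen genes Col1a1 and Col1a2 were called lower, with Col1a2 at 144 and 148 FPKM with IL-22 and 186 and 159 FPKM in controls. The part of these markers in the results below was not tested.

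After IL-22 most of the tested genes of this set had lower mRNA levels, while a few, led by the matrix protease gene Lonp1, had higher ones. Of the 34 tested genes, 19 fell, 6 rose and 9 did not pass the limma threshold of an adjusted p under 0.05. The share that fell was 55.9%, against 30.8% of all 9485 tested gene rows, and the share that rose was 17.6%, against 27.6% of all rows. Calls in either direction covered 73.5% of these genes and 58.4% of all rows. Differences are given as IL-22 minus control in units of log2(FPKM + 1), and their median was -0.24 over these genes and -0.02 over all rows. The differences ran from -0.95 for Hspd1 to 0.83 for Lonp1. Their median absolute size was 0.36, against 0.32 over all rows. An absolute difference of 1 was reached by 0 of 34, against 7.53% of all rows. IL-22 and control libraries did not overlap in 27 of 34 genes (79.4%), which is close to the 80.1% of all rows, so separation of the groups by itself did not set these genes apart. These genes were also expressed above the average row, with a median of 65.8 FPKM against 18.2 FPKM. With the minimum raised to 5 FPKM, 34.7% of all rows were called lower and 27.2% higher.

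**Figure D1:**
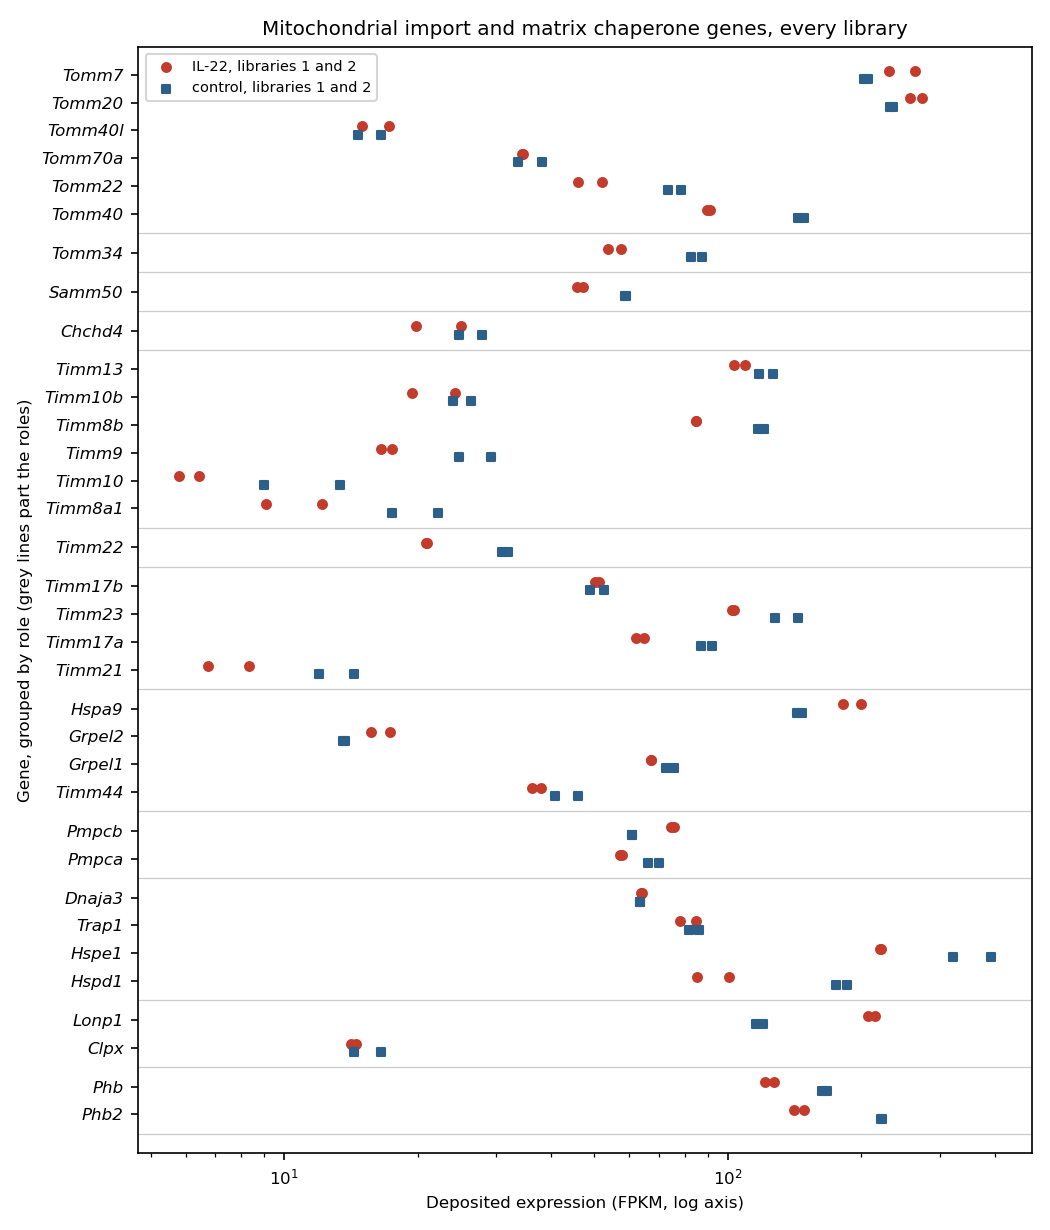
Deposited FPKM of the 34 tested genes in each of the 4 libraries, on a log axis, with IL-22 libraries as red circles and control libraries as blue squares and the genes grouped by role. Tomm40, Hspd1 and Phb2 show red circles far to the left of the blue squares, and Lonp1 shows the reverse.

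The outer-membrane translocase changed in both directions. Tomm40 encodes the channel through which precursors cross the outer membrane. It measured 89.9 and 91.3 FPKM with IL-22 and 149 and 144 FPKM in controls, with no overlap and a difference of -0.68 ± 0.06 (SE, limma adjusted p = 2.45e-05). Tomm22, the central receptor that also holds the complex together, fell as well, to 46.0 and 51.9 FPKM with IL-22, against 78.4 and 73.1 FPKM in controls (-0.62 ± 0.08, limma adjusted p = 0.000187). By group means, the level fell by 38.0% for Tomm40 and fell by 35.4% for Tomm22.

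The presequence receptor gene Tomm20 moved the other way, at 274 and 258 FPKM with IL-22 and 236 and 231 FPKM in controls (0.19 ± 0.06, limma adjusted p = 0.0289). Tomm7, a small subunit that modulates the stability of the complex, was at 230 and 263 FPKM with IL-22 and 207 and 202 FPKM in controls (0.27 ± 0.07, limma adjusted p = 0.0131). All IL-22 values of both genes lay above all control values, but both calls were lost in several settings. That of Tomm20 did not hold without the variance trend or without any 1 of the 4 libraries (across the 13 alternatives, limma adjusted p between 0.0162 and 0.270). That of Tomm7 did not hold without the filter, without the trend, or without IL-22 library 2, control library 1 or control library 2 (across the 13 alternatives, limma adjusted p between 0.00123 and 0.186).

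The remaining TOM genes had overlapping groups. Tomm70a, the receptor for carrier precursors that dock with cytosolic chaperones, measured 34.5 and 34.4 FPKM with IL-22 and 38.0 and 33.6 FPKM in controls (-0.05 ± 0.08, limma adjusted p = 0.596). Tomm40l, a paralogue of the channel gene, measured 15.0 and 17.2 FPKM with IL-22 and 16.5 and 14.7 FPKM in controls (0.04 ± 0.10, limma adjusted p = 0.725). Tomm34, which despite its name encodes a cytosolic co-chaperone of Hsp70 and Hsp90, fell to 57.5 and 53.6 FPKM with IL-22, against 87.2 and 82.7 FPKM in controls (-0.60 ± 0.07, limma adjusted p = 0.000104).

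Samm50, the core of the machinery that inserts beta-barrel proteins such as Tomm40 into the outer membrane, was at 47.2 and 45.6 FPKM with IL-22 and 58.9 and 58.8 FPKM in controls (-0.34 ± 0.07, limma adjusted p = 0.00231). Chchd4, the oxidoreductase that traps small cysteine-rich proteins in the intermembrane space, measured 25.1 and 19.8 FPKM with IL-22 and 27.9 and 24.8 FPKM in controls, with overlap between IL-22 library 1 and control library 2 (-0.23 ± 0.11, limma adjusted p = 0.114). Without IL-22 library 1 it passed (-0.39, limma adjusted p = 0.0128, with 0.0128 to 0.680 across the 13 alternatives).

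The small TIM chaperones carry hydrophobic precursors across the intermembrane space and depend on Chchd4 for their own import. Of their 6 tested genes, 5 fell (83.3%, against 30.8% of all rows). Timm8a1 had the largest difference among them, at 12.2 and 9.08 FPKM with IL-22 and 22.3 and 17.5 FPKM in controls (-0.85 ± 0.15, limma adjusted p = 0.00104). Timm10 was at 6.44 and 5.79 FPKM with IL-22 and 13.4 and 9.0 FPKM in controls (-0.75 ± 0.16, limma adjusted p = 0.00329). Its partner in a hexamer, Timm9, was at 17.5 and 16.5 FPKM with IL-22 and 24.8 and 29.3 FPKM in controls (-0.63 ± 0.10, limma adjusted p = 0.000520). In these 3 genes every IL-22 library lay below every control library, although the controls of Timm10 were far apart. Without control library 1 the difference of Timm10 was -0.49 (limma adjusted p = 0.0325).

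Timm8b fell to 84.9 and 84.8 FPKM with IL-22, against 121 and 117 FPKM in controls (-0.48 ± 0.06, limma adjusted p = 0.000195). Timm13, the hexamer partner of Timm8a1, was at 103 and 109 FPKM with IL-22 and 126 and 118 FPKM in controls (-0.20 ± 0.07, limma adjusted p = 0.0300). That call was lost without the filter or the trend, and on leaving out either IL-22 library or control library 1 (across the 13 alternatives, limma adjusted p between 0.0156 and 0.223). Timm10b, the small TIM that sits on the TIM22 complex, overlapped between the groups, at 19.4 and 24.2 FPKM with IL-22 and 26.4 and 24.0 FPKM in controls (-0.21 ± 0.11, limma adjusted p = 0.134). It passed without IL-22 library 2 (-0.36, limma adjusted p = 0.0219, with 0.0219 to 0.741 across the 13 alternatives). Timm8a2, which lies under the expression minimum and was not tested, was listed at 0 in both IL-22 libraries and at 0.542 and 0.282 FPKM in controls.

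Both inner-membrane translocases had lower levels of their channel genes. Timm22, which forms the carrier translocase, fell to 20.9 and 21.0 FPKM with IL-22, against 31.0 and 31.9 FPKM in controls (-0.56 ± 0.08, limma adjusted p = 0.000240). Timm23, the channel gene of the presequence translocase, fell to 103 and 102 FPKM with IL-22, against 144 and 128 FPKM in controls (-0.39 ± 0.07, limma adjusted p = 0.00155). Timm21, which links TIM23 to TOM and to the respiratory chain, was the lowest of the 4 TIM23 genes and fell most, to 8.34 and 6.75 FPKM with IL-22, against 14.4 and 12.0 FPKM in controls (-0.73 ± 0.13, limma adjusted p = 0.00106).

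The paralogues Timm17a and Timm17b, alternative partners of Timm23 in the channel, had different calls. Timm17a fell to 64.7 and 62.0 FPKM with IL-22, against 91.9 and 87.1 FPKM in controls (-0.49 ± 0.07, limma adjusted p = 0.000265). Timm17b was at 51.2 and 50.1 FPKM with IL-22, inside the control values of 48.9 and 52.6 FPKM (-0.00 ± 0.07, limma adjusted p = 0.977). The table holds a second Timm17b row with equal IL-22 values and with 48.6 and 52.4 FPKM in controls, so reads may have been given to either copy. The ratio of Timm17a to Timm17b was 1.27 and 1.24 with IL-22 and 1.88 and 1.66 in controls.

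The import motor split between rising and falling genes. Hspa9, the matrix Hsp70 known as mortalin, pulls precursors in and folds them. It rose to 199 and 182 FPKM with IL-22, against 147 and 143 FPKM in controls (0.39 ± 0.07, limma adjusted p = 0.000995), and the call held in all 13 alternatives. Timm44, which anchors Hspa9 at the channel, was at 36.2 and 37.8 FPKM with IL-22 and 45.9 and 40.7 FPKM in controls (-0.22 ± 0.08, limma adjusted p = 0.0437). That call was lost in 6 of 13 alternatives: without the filter, with quantile normalization, without the trend, and without either IL-22 library or control library 1. Across all 13, its limma adjusted p lay between 0.0236 and 0.194.

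The nucleotide exchange factors of Hspa9 did not pass in the same way. Grpel2 measured 15.7 and 17.4 FPKM with IL-22 and 13.6 and 13.7 FPKM in controls (0.26 ± 0.09, limma adjusted p = 0.0329), a call lost without the filter and without IL-22 library 2 or either control library (across the 13 alternatives, limma adjusted p between 0.0225 and 0.238). Its more abundant paralogue Grpel1 measured 67.3 and 67.2 FPKM with IL-22 and 75.5 and 72.4 FPKM in controls (-0.13 ± 0.07, limma adjusted p = 0.105). All 4 motor genes had groups that did not overlap, as did 80.1% of all rows, and Grpel1 had no call.

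The promoter of Hspa9 is shown because it holds matches to a composite C/EBP-ATF element and to a heat shock element, both known from stress responses. The stretch is the 250 bases before the RefSeq gene start in the build GRCr8, chr18:26828399-26828648, minus strand. Capitals mark the composite element (letters TGATGNAAN, either strand) and then a heat shock element (letters GAANNTTC, which read alike on both strands).
Hspa9: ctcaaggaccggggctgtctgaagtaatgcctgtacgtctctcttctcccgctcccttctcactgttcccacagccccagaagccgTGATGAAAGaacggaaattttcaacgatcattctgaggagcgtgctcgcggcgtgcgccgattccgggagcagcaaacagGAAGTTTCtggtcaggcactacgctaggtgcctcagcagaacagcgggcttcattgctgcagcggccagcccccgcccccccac

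The composite match spans bases 164 to 156 before the start and the heat shock match bases 84 to 77. The composite letters occur in 3 of the 32 promoters of this gene set that RefSeq gives, in 3.25% of all 27457 promoters and in 1.70% of the 7656 promoters of tested genes. The other 2 matches stand before Timm22, which fell, and Tomm40l, which did not pass, so the letters did not go with 1 direction. A match of letters is a description and does not show binding.
Timm22, chr10:61751436-61751685, plus strand: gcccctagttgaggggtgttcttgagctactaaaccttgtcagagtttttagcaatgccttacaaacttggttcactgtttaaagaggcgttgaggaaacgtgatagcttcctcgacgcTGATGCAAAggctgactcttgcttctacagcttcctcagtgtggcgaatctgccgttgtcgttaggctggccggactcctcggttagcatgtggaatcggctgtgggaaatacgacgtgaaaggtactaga

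The presequence peptidase is a dimer of a catalytic and a partner subunit, and their genes moved in opposite directions. Pmpcb, the catalytic subunit, rose to 75.7 and 74.3 FPKM with IL-22, against 60.8 and 60.7 FPKM in controls (0.30 ± 0.06, limma adjusted p = 0.00337). Pmpca, which binds the presequence, was at 57.1 and 57.7 FPKM with IL-22 and 69.8 and 66.2 FPKM in controls (-0.24 ± 0.07, limma adjusted p = 0.0126). The call of Pmpca was lost with quantile normalization and without either IL-22 library, and over 13 alternatives the limma adjusted p ran from 0.00634 to 0.0825. Pmpca was below Pmpcb in both IL-22 libraries and above it in both controls.

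Among the matrix chaperones the chaperonin genes fell. Hspd1 encodes Hsp60, the barrel in which matrix proteins fold, and had the largest fall of the gene set. It measured 100.4 and 85.3 FPKM with IL-22 and 185 and 175 FPKM in controls (-0.95 ± 0.08, limma adjusted p = 1.98e-05), and by group means its level fell by 48.5%. Hspe1 encodes Hsp10, the lid of that barrel, and measured 222 and 220 FPKM with IL-22 and 392 and 321 FPKM in controls (-0.68 ± 0.09, limma adjusted p = 0.000214). Both calls held in all 13 alternatives.

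Trap1 and Dnaja3, the other genes grouped here as matrix chaperones, had no call. Trap1, the mitochondrial Hsp90, measured 78.1 and 84.6 FPKM with IL-22 and 81.8 and 86.1 FPKM in controls (-0.04 ± 0.07, limma adjusted p = 0.603). Dnaja3, a J-domain partner of Hspa9, measured 63.8 and 63.9 FPKM with IL-22 and 63.5 and 63.5 FPKM in controls (0.01 ± 0.06, limma adjusted p = 0.930). In the plot of differences these genes sit at the zero line.

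Hspd1 and Hspe1 lie head to head, and the promoter of Hspe1 is shown because most of it is also that of Hspd1. In GRCr8 the gene starts are 289 bases apart, and the 250-base windows before them share 211 bases. Printed is the whole 250-base window before Hspe1, chr9:64084077-64084326, plus strand, with the heat shock element (GAANNTTC) in capitals.
Hspe1: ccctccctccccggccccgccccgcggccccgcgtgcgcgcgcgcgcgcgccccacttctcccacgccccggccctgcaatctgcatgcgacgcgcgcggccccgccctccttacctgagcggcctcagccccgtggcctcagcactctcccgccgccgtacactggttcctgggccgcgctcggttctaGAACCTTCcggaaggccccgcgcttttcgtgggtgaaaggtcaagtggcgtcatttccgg

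That match lies 60 to 53 bases before the Hspe1 start and, on the same bases, 237 to 230 before the Hspd1 start. Heat shock element letters occur in 3 of the 32 promoters, those of Hspd1, Hspe1 and Hspa9, in 7.02% of all promoters and in 4.52% of those of tested genes. The 3 genes did not move together, since Hspd1 and Hspe1 fell and Hspa9 rose. The ETS core (ACTTCCGG, either strand) was the most common of the 5 motifs searched, in 10 of 32 promoters (31.2%), in 3.29% of all promoters and in 8.22% of those of tested genes. It stood before 3 of the 5 risen genes with a promoter, 3 of the 18 fallen ones, 3 of the 8 without a call, and Timm8a2. The E-box (CACGTG) occurred before Timm8a1 and Timm10, in 5.79% of all promoters and 8.88% of those of tested genes. The core of the nuclear respiratory factor 1 site (GCGCATGC, either strand, with overlapping matches) occurred before Tomm7, Chchd4 and Grpel1, in 2.38% of all promoters and 5.25% of those of tested genes.

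The promoter of Phb2 is shown because it alone in the set held more than 2 ETS cores. It lies at chr4:159203698-159203947, plus strand, with the cores in capitals.
Phb2: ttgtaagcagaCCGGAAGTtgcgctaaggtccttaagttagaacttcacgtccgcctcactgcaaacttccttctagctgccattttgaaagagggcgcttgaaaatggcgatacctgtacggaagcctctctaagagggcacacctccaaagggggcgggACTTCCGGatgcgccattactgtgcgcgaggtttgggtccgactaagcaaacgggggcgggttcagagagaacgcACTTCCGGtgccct

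Phb2 and Phb encode the prohibitins, which build a ring scaffold in the inner membrane that holds proteases and guards new proteins. Phb2 fell to 141 and 149 FPKM with IL-22, against 221 and 222 FPKM in controls (-0.61 ± 0.06, limma adjusted p = 4.61e-05). Phb fell to 121 and 127 FPKM with IL-22, against 167 and 163 FPKM in controls (-0.41 ± 0.06, limma adjusted p = 0.000479). In both genes every IL-22 library lay below every control library.

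Lonp1, the main protease of the matrix and also a chaperone, had the largest increase of the gene set. It rose to 207 and 215 FPKM with IL-22, against 120 and 116 FPKM in controls (0.83 ± 0.06, limma adjusted p = 7.82e-06), a gain of 78.8% by group means. By mean level it was the 4th of the 34 genes with IL-22 and the 12th in controls. Clpx, the unfoldase of the other matrix protease, measured 14.5 and 14.2 FPKM with IL-22 and 16.6 and 14.3 FPKM in controls, with overlapping groups (-0.10 ± 0.10, limma adjusted p = 0.40).

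**Figure D2:**
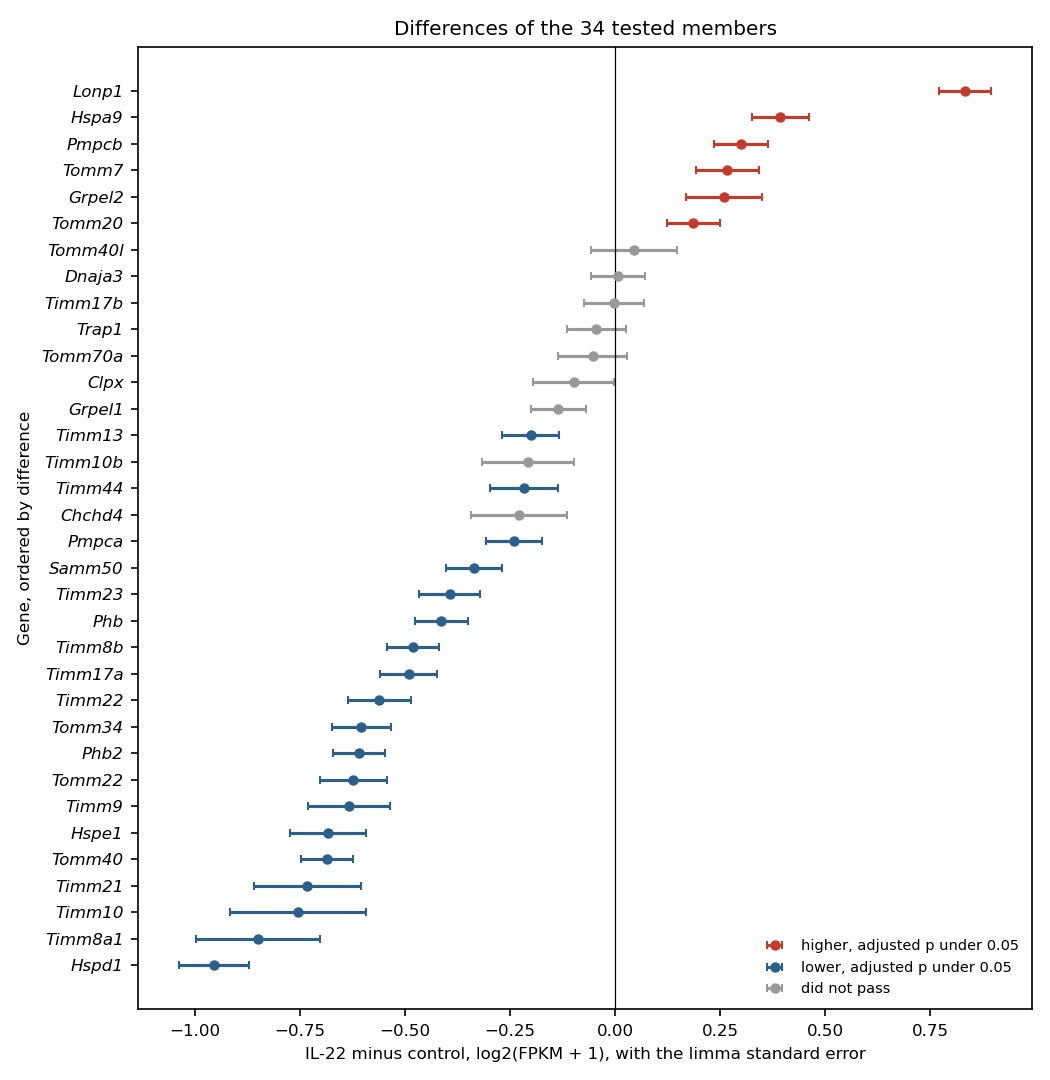
Differences between IL-22 and control in log2(FPKM + 1) units, IL-22 minus control, for the 34 tested genes, with the limma standard error as bars, red for genes called higher, blue for genes called lower and grey for genes without a call. Lonp1 at 0.83 stands well above the next gene, Hspa9 at 0.39, and Hspd1 at -0.95 is the lowest.

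The order of levels shifted with these changes. With IL-22 Tomm20 led with 266 ± 11.6 FPKM (SD, n = 2), and Tomm7 with 247 ± 23.5 FPKM overlapped it. Hspe1 with 221 ± 1.25 and Lonp1 with 211 ± 5.54 FPKM came next. In controls Hspe1 led with 357 ± 50.5 FPKM, followed by Tomm20 with 234 ± 3.03 and Phb2 with 222 ± 0.578 FPKM. Timm10 and Timm21 were the lowest 2 in both groups. Summed over the 35 genes, the level was 2710 and 2722 FPKM with IL-22 and 3223 and 3049 FPKM in controls, or 0.411% and 0.406% of all FPKM of the gene table with IL-22 and 0.506% and 0.484% in controls. In bulk RNA, a lower level in each cell and fewer cells with a high level cannot be told apart.

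Ratios between genes that work together were compared within each library, for 10 pairs. In 9 of them the IL-22 and control ratios did not overlap, 7 lower and 2 higher with IL-22. Single rows of the table were separated in 80.1% of cases. No such share was computed for ratios of genes, so the count of separated pairs has no direct background and is only a description. The exact two-sided permutation test over 2 against 2 libraries cannot go below 0.333, so no pair could pass, and the smallest p adjusted over the 10 pairs was 0.370. The log2 ratio of Tomm20 to Tomm22 was 2.58 and 2.31 with IL-22 and 1.59 and 1.66 in controls, a difference of 0.82. The log2 ratio of Tomm40 to Tomm40l was 2.58 and 2.40 with IL-22 and 3.17 and 3.29 in controls, a difference of -0.74. Both differences were larger than the distance between the libraries of a group.

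The log2 ratio of Pmpca to Pmpcb was -0.41 and -0.37 with IL-22 and 0.20 and 0.13 in controls. For Grpel1 over Grpel2 it was 2.10 and 1.95 with IL-22 and 2.47 and 2.40 in controls. Hspd1 over Hspe1 gave -1.14 and -1.37 with IL-22 and -1.08 and -0.87 in controls, a difference of -0.28 that was little larger than the distance between libraries of a group. It was -0.16 without IL-22 library 2 and -0.17 without control library 2. The difference in log2 ratio was -0.71 for Timm8a1 over Timm13, and -0.45 without IL-22 library 2. For Timm8a1 over Timm8b it was -0.42, and without 1 library it lay between -0.64 (IL-22 library 1 left out) and -0.21 (IL-22 library 2 left out), with -0.28 without control library 1. Phb over Phb2 gave -0.22 and -0.23 with IL-22 and -0.40 and -0.44 in controls, a difference of 0.20. Timm9 over Timm10 was the pair with overlap, with 1.44 and 1.51 with IL-22, between the 0.89 of control library 1 and the 1.70 of control library 2.

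**Figure D3:**
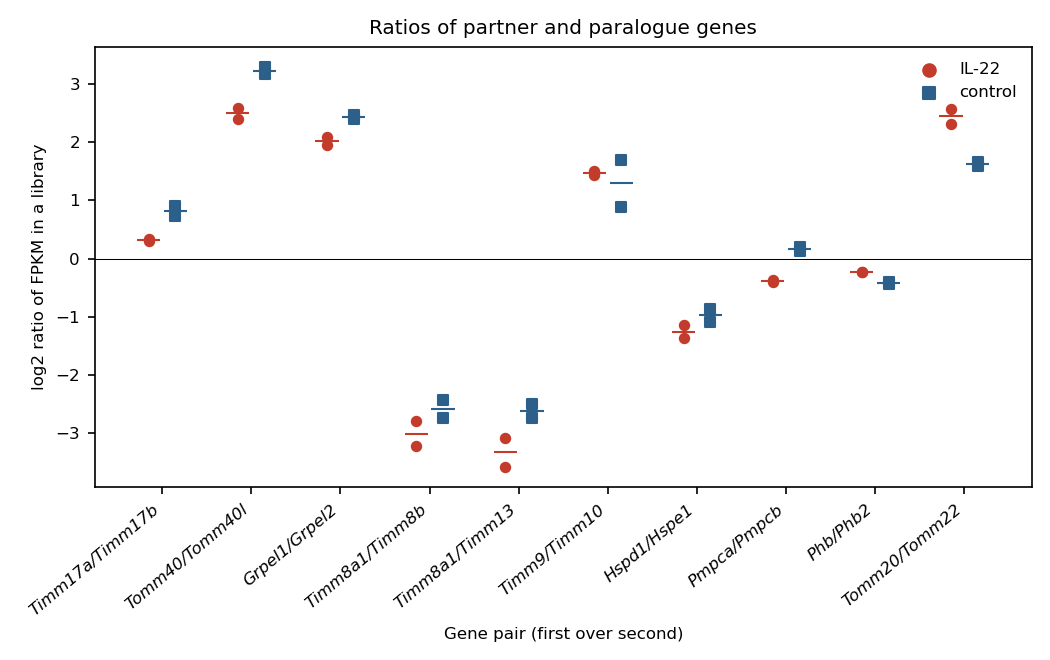
The log2 ratio of FPKM of 2 genes in each library for 10 pairs, with red circles for IL-22, blue squares for controls and a short line at each group mean. Tomm20/Tomm22 and Tomm40/Tomm40l show the widest gaps, 0.82 and -0.74, and Timm9/Timm10 has overlapping groups.

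Of 21 other tested genes of the import pathway, from a list that the rule does not cover, 4 rose (19.0%, against 27.6% of all rows) and 8 fell (38.1%, against 30.8%). The other 9 did not pass, and the median difference was -0.16, against -0.02 over all rows. Pam16, a regulatory J-like subunit of the import motor, rose to 89.8 and 104.9 FPKM with IL-22, against 61.2 and 61.3 FPKM in controls (0.66 ± 0.08, limma adjusted p = 0.000158). Dnajc11, which binds the outer-membrane assembly machinery, was at 31.2 and 29.7 FPKM with IL-22 and 51.3 and 48.2 FPKM in controls (-0.69). Immt, the cristae organizer mitofilin, was at 66.6 and 61.0 FPKM with IL-22 and 102.8 and 101 FPKM in controls (-0.67). Dnlz, which keeps Hspa9 soluble, was at 32.7 and 36.3 FPKM with IL-22 and 53.7 and 48.8 FPKM in controls (-0.56). The count of fallen genes was 5 without the filter and without control library 1.

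Of 14 other mitochondrial protease and quality-control genes, 1 rose, 5 fell and 8 did not pass (median -0.08). The share that fell, 35.7%, was near the 30.8% of all rows, and the share called in either direction, 42.9%, was below the 58.4% of all rows. Bcs1l, an assembly factor of complex III, was at 8.69 and 7.99 FPKM with IL-22 and 19.2 and 13.9 FPKM in controls (-0.89 ± 0.14, limma adjusted p = 0.000583). Mrpl12, a mitochondrial ribosomal protein that Lonp1 is known to degrade in its free form, was at 44.4 and 46.1 FPKM with IL-22 and 87.5 and 75.9 FPKM in controls (-0.83). The mitophagy kinase gene Pink1 (-0.50) and Lactb (-0.61) fell too. The risen gene was Spg7, a subunit of an inner-membrane protease (0.35), whose call was lost without the filter and without control library 2, where its limma adjusted p was 0.0741 and 0.0571. It was named after its values were seen.

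Regulators tied to the mitochondrial unfolded protein response and the integrated stress response gave 7 risen and 4 fallen genes of 14 (median 0.20). These are 50% higher and 28.6% lower, against 27.6% and 30.8% of all rows. The list was drawn up with the rise of some of its genes in these libraries known. Ddit3, which encodes CHOP, was at 224 and 259 FPKM with IL-22 and 50.1 and 46.3 FPKM in controls (2.30 ± 0.08, limma adjusted p = 1.47e-07). Atf4 was at 526 and 527 FPKM with IL-22 and 160 and 165 FPKM in controls (1.69 ± 0.06, limma adjusted p = 1.47e-07). Cebpb rose by 1.25 and the mitochondrial deacetylase gene Sirt3 by 0.81. The fallen genes, named after their values were seen, were Eif2ak2 (-0.46), Hsf1 (-0.37), Eif2ak4 (-0.32) and Eif2ak1 (-0.28). The count of fallen genes was 2 without IL-22 library 1. Atf5, the factor most closely tied to the mammalian response and named after its values were seen, measured 128 and 122 FPKM with IL-22 and 109 and 106 FPKM in controls (0.21 ± 0.06, limma adjusted p = 0.0181). That call was lost without the trend and without either IL-22 library or control library 2 (across the 13 alternatives, limma adjusted p between 0.00851 and 0.177).

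Biogenesis and content genes gave 2 risen and 8 fallen of 20 (median -0.22), and 4 risen of 23 without the filter. Of the 20, 40% fell, against 30.8% of all rows, and calls in either direction covered 50%, against 58.4% of all rows. Pprc1, a coactivator of nuclear genes for mitochondria, was at 19.7 and 18.3 FPKM with IL-22 and 37.9 and 39.6 FPKM in controls (-0.99 ± 0.08, limma adjusted p = 1.10e-05). The mitochondrial DNA factor Tfam (-0.62) and the transcription factor Tfb2m (-0.65) fell, while the nuclear receptor gene Esrra rose by 0.84. Ppargc1a, Ppargc1b and Gabpb1 lay under the expression minimum, were not tested and were named after their values were seen. Ppargc1a was at 0.450 and 0.599 FPKM with IL-22 and 0.108 and 0.127 FPKM in controls. Ppargc1b was at 0.837 and 1.14 FPKM with IL-22 and 0.454 and 0.514 FPKM in controls. Gabpb1 was lower with IL-22, at 0.367 and 0.384 FPKM, against 0.957 and 1.08 FPKM in controls. Citrate synthase (Cs), often used as a measure of mitochondrial content, was named after its values were seen. It measured 203 and 198 FPKM with IL-22 and 211 and 210 FPKM in controls and did not pass (-0.07 ± 0.06, limma adjusted p = 0.345). Other genes of the list, also named after their values were seen, went both ways. Vdac1 rose by 0.30, Cycs (-0.58) and Vdac3 (-0.47) fell, and Vdac2 did not pass (-0.11). Mitochondrial content was not tested.

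Cytosolic chaperones that bring precursors to the outer membrane gave 0 risen and 13 fallen genes of 18 by limma, with a median of -0.48. The share that fell was 72.2%, against 30.8% of all rows, and 27.6% of all rows rose. Without the filter, with quantile normalization and with median-of-ratios size factors, 1 of the 18 was called higher. Hsph1, an exchange factor of Hsp70, was at 34.9 and 33.9 FPKM with IL-22 and 127 and 115 FPKM in controls (-1.78 ± 0.07, limma adjusted p = 2.70e-07). Dnajb1 (-1.25), Dnaja1 (-1.05) and Hsp90aa1 (-0.98) followed. Groups of all 4 did not overlap, but these genes were picked for their large differences. Over the whole list 14 of 18 did not overlap, against 80.1% of all rows. Hspd1 and Hspe1 fell as these 4 genes did, whereas Hspa9 rose.

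**Figure D4:**
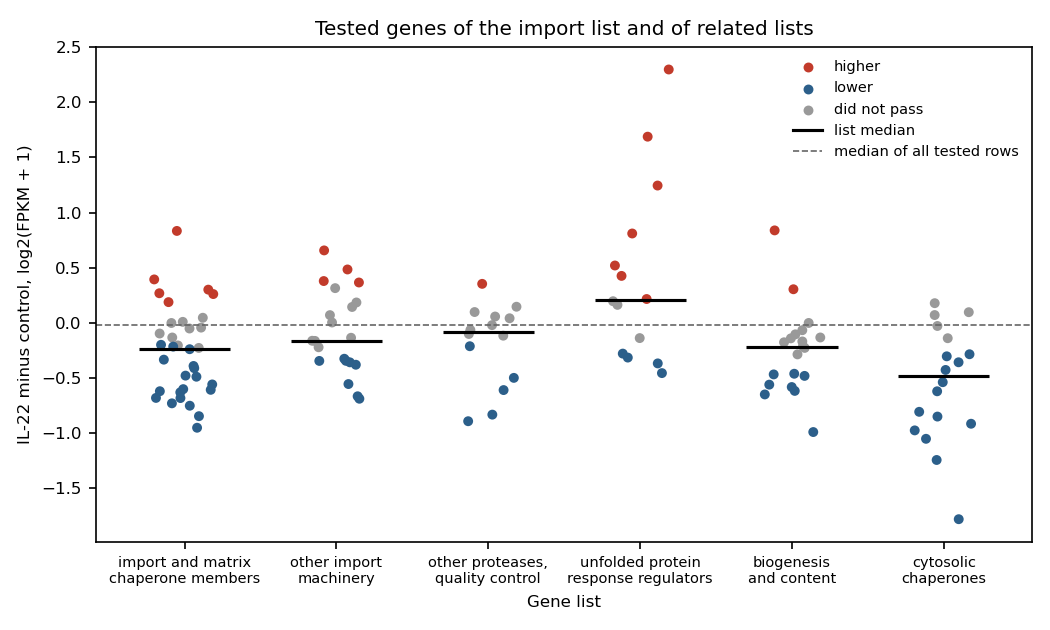
Differences between IL-22 and control in log2(FPKM + 1) units, IL-22 minus control, for each tested gene of the import and matrix chaperone set and of 5 related lists, coloured by call, with black lines at list medians and a dashed line at the median of all tested rows. The medians run from -0.48 for cytosolic chaperones to 0.20 for unfolded protein response regulators, and each list except the cytosolic chaperones holds called genes on both sides of 0.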

How the data were processed

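Poly(A) RNA of 4 RSC96 libraries was sequenced, 2 with IL-22 and 2 controls. The authors deposited 1 table of FPKM per gene, made with TopHat2 and Cuffdiff on the rat build rn5, per the submitters' processing notes. Tool versions, the annotation and the strand setting: not given in the sources used here. A table of long non-coding RNAs was not used.

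FPKM were taken as log2(FPKM + 1), the 9485 of 17778 rows that averaged 1 FPKM or more were kept, and IL-22 minus control was tested two-sided with limma 3.58.1 (R 4.3.3, variance trend) with Benjamini-Hochberg adjustment over all tested rows at 0.05. The scripts were tested on simulated data. Gene members were taken by symbol, using the row with the highest mean where a symbol had several. Ratios of 10 pairs were compared by an exact permutation test, whose smallest p is 0.333. Other tools were Python 3.11.15, numpy 2.4.6, pandas 2.3.3, scipy 1.17.1 and matplotlib 3.10.9. Promoters are the 250 bases before the gene start in RefSeq's GRCr8, found for 32 of 35 members. Tomm34, Clpx and Lonp1 had no entry.

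The members and lists were chosen with earlier results of these data known. Any member could be named. From each related list the 4 called genes with the largest absolute difference were named. Atf5, Hsf1, Eif2ak1, Eif2ak2, Eif2ak4, Cs, Spg7, Vdac1, Vdac2, Vdac3, Cycs, Ppargc1a, Ppargc1b and Gabpb1 were added after their values were seen. Alternatives were pseudocounts of 0.1 and 5, no filter or a minimum of 5 FPKM, quantile normalization, median-of-ratios size factors, no trend, robust eBayes, a block for the replicate number, and leaving out each library. The absolute depth is unknown, so no counting interval can be given. The Schwann lineage list is given over 11 markers, and a further marker is not reported here and enters neither the count nor the sum.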

Additional observations from a re-analysis of the deposited data

How the results depend on the processing

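Of the 25 called import and chaperone genes, 19 kept their call under all 13 alternatives: 3 higher (Lonp1, Hspa9 and Pmpcb) and 16 lower. The other 6 lost it under at least 1, and 2 without a call gained one. With 1 library left out, which takes the remaining library's spread from the other group, between 3 and 5 genes were called higher (6 with all libraries) and between 17 and 19 lower (19), and the median difference ran from -0.31 to -0.18 (-0.24). The causes were not tested. Directions turned for 4 genes without a call and for 1 ratio. With quantile normalization the difference was 0.0333 for Tomm70a and 0.0874 for Timm17b, and with size factors it was 0.0038 for Timm17b. Leaving out 1 library gave -0.0506 to 0.14 for Tomm40l, -0.14 to 0.0345 for Tomm70a, -0.0546 to 0.0489 for Timm17b, -0.10 to 0.0124 for Trap1, and -0.22 to 0.59 for the log2 ratio of Timm9 to Timm10. All 20 genes named by rule from the related lists kept their call, but they were picked for the largest differences among called genes. That choice favours calls that hold. Atf5 and Spg7, of the same lists but outside that choice, lost theirs in some alternatives. Same-numbered libraries did not deviate together across tested genes (correlation -0.00197). With 1 difference between libraries in each group, this cannot show whether the numbers pair the samples. A fit with the replicate block called 6 of these genes higher and 20 lower (Chchd4 gained, limma adjusted p = 0.0286), and 2755 rows higher and 3070 lower over all rows. With 2 libraries a group and no known depth, small differences such as those of Trap1 and Dnaja3 cannot be separated from no difference.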
